A study of Mus musculus with 4 samples.

Results

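The insulin-like growth factor (IGF) family was followed on the arrays as 10 genes chosen by name: the ligands Igf1 and Igf2, the receptors Igf1r and Igf2r, and the binding proteins Igfbp2, Igfbp3, Igfbp4, Igfbp5, Igfbp6 and Igfbp7. The choice was made with earlier results of these data known. These genes were 10 of the 22911 that could be named on the array. Of its 59305 spots that are not controls, 13 covered them. RNA came from mesenchymal stroma cells (MSCs) and from CD8+ T cells, each sorted from subcutaneous tumors of Wt and Sipa1-/- C57BL/6Ncr mice aged 8 weeks. Sipa1 encodes a GTPase-activating protein that turns off the small GTPase Rap1, and the host mice lack it in all cells. Every mouse, Wt hosts included, carried the same tumor graft: 15000 GFP+ Wt hematopoietic progenitors made to express p210 Bcr-Abl with a retrovirus and given in Matrigel 12 days earlier. MSCs were the GFP- cells without CD45, Ter119 and CD31, and CD8+ T cells, called T cells below, the GFP- cells with TCRβ and CD8. The labels give 5 mice per genotype, and whether their RNA was pooled is not given in the sources used here. Each of the 4 conditions, Wt and Sipa1-/- in either cell type, has 1 array. No difference below has a replicate check, no test or p-value was computed, and the number of arrays limits the precision.

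IGF1 and IGF2 are secreted growth factors that act through IGF1R, a receptor tyrosine kinase that signals through insulin receptor substrates, PI3 kinase and AKT. IGF2R, the cation-independent mannose-6-phosphate receptor, takes up IGF2 and sends it to lysosomes, so it removes ligand rather than passing on its signal. The IGFBPs are secreted proteins that hold the ligands and set how much reaches the receptor, and proteases such as pappalysin cut some of them and free the ligand. Fibroblasts and other stromal cells are a well-known local source of IGF1 and of several IGFBPs.

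Levels are log2 spot intensities relative to the 75th percentile of each array, so 0 is the 75th percentile and a difference of 1 is 2-fold. The level of a member was compared between arrays and not with that of another gene. For marker lists, levels of different genes were summed or ranked, so bright genes weigh most in a sum. A gene was measured in a pair of arrays when a probe passed the scanner's flags on both, and a change of 2-fold or more is called a rise or a fall. The spots well above background made up 60.3 to 65.3% of each array. The median SD between spots of 1 probe on 1 array was 0.040 to 0.045 for all probes printed at least 5 times. It rose to 0.10 to 0.15 for levels between -4 and -2 and to 0.52 to 0.76 below -4. The last 2 ranges rest on few probes, 4 to 7 and 3 to 8 per array. These SDs cover spot noise and not the spread between mice. On the log2 scale the Sipa1 probes fell by 1.59 and 1.25 in Sipa1-/- MSCs and by 2.05 and 1.67 in Sipa1-/- T cells, and both stayed well above background. Whether these probes lie in the deleted part of the gene is not given in the sources used here.

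In MSCs, 9 of the 10 genes were measured, and each of the 9 had a higher level in Sipa1-/- than in Wt, 7 of them by at least 2-fold, and 0 fell. Among all 15298 genes measured in this pair, 19.3% rose and 11.3% fell by 2-fold or more. The median log2 ratio, Sipa1-/- over Wt, was 1.42 for the family and 0.04 for all genes. In T cells, 4 of 9 measured members rose and 0 fell, where 2.66% of 14339 genes rose and 1.4% fell. The family median there was 0.84 and that of all genes -0.02. The binding proteins made up most of both counts, with 6 of 6 rising in MSCs and 4 of 6 in T cells.

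**Figure D1:**
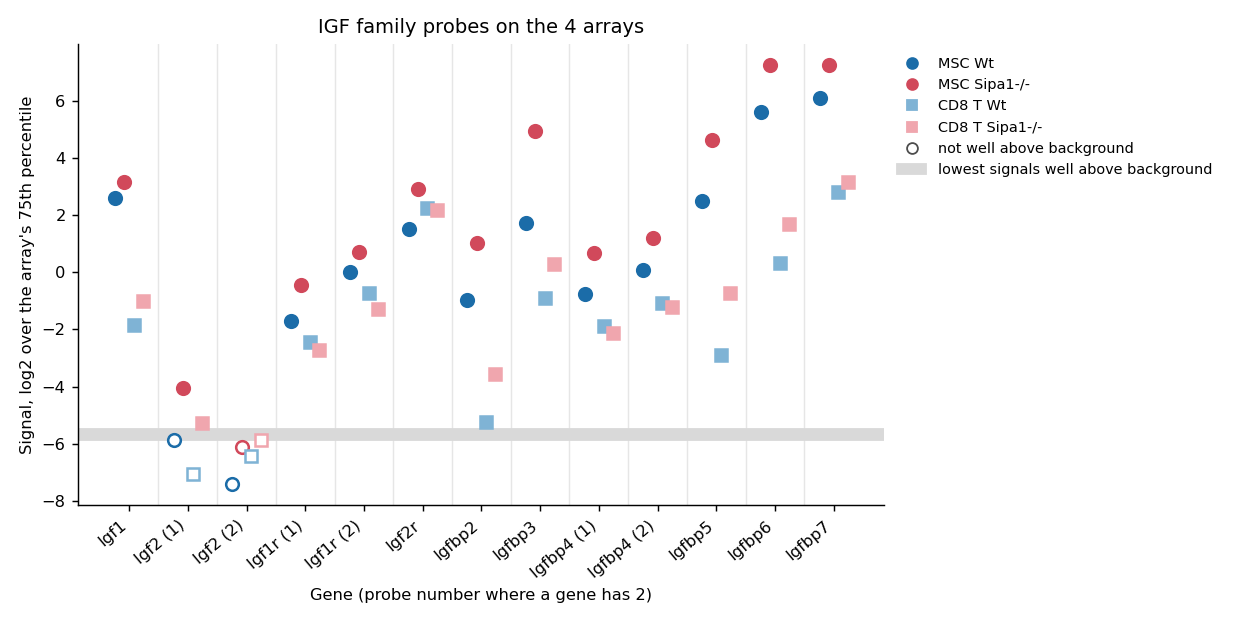
Signal of the 13 probes of the IGF family on each of the 4 arrays, as log2 over the array's 75th percentile (vertical axis), by gene (horizontal axis). Circles are MSC arrays and squares T cell arrays; open symbols are not well above background, and the grey band spans the lowest signals that were. Every probe measured on both MSC arrays is higher on the Sipa1-/- one, and Igfbp3 stands farthest apart, at 1.70 and 4.92.

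The sequences before the start sites of the 3 members with the largest ratio in MSCs, and of Igf1, which had the smallest, are shown because their ratios span the range of the family. They are the 250 bases upstream of a RefSeq start site in GRCm38.p6, 5′ to 3′ on the gene's strand. All 10 members matched RefSeq promoters, with 14 start sites in all. Capitals mark matches on either strand to TATANA (TATA box), GGGCGG (the GC box that Sp1 binds), CCAAT, and TGANTCA (AP-1-like, N being any base). Igfbp3 lies at chr11:7213924-7214173 on the minus strand, Igfbp5 at chr1:72874866-72875115 on the minus strand, Igfbp2, at the first of its start sites, at chr1:72824230-72824479 on the plus strand and Igf1 at chr10:87860861-87861110 on the plus strand.
Igfbp3: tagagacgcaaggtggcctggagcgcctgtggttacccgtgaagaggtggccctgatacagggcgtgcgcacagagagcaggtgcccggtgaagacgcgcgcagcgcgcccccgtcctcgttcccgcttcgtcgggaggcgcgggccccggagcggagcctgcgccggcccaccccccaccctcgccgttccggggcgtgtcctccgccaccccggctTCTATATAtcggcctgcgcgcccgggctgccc
Igfbp5: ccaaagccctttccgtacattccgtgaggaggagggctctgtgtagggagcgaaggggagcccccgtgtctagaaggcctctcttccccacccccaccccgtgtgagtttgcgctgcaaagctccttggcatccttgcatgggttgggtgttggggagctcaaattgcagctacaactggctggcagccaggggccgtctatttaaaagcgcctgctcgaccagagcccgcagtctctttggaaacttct
Igfbp2: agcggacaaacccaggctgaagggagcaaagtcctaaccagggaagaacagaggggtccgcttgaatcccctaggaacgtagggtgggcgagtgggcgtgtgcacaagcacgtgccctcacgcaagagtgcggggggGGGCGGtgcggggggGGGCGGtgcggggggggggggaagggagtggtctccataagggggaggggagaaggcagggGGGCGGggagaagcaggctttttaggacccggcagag
Igf1: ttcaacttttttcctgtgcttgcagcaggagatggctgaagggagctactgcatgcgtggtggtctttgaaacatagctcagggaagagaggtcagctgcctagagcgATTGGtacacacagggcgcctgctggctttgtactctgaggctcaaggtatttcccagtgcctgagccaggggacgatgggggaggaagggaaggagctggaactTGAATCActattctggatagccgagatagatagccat

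The Igfbp3 sequence held TATANA at -30, counted from the start site, and in reverse at -32, and these matches overlap. The Igfbp2 sequence held GGGCGG at -113, -98 and -37. Igf1 held TGANTCA, as TGAATCA, at -37 and CCAAT, in reverse, at -142, and the Igfbp5 window held none of the 4 motifs. Over all 32851 RefSeq start sites, TATANA was found before 22.6%, GGGCGG before 32.7%, CCAAT before 33.8% and TGANTCA before 6.75%. Of the 14 start sites of the family, 3 had TATANA (Igfbp3, Igfbp4 and Igfbp6), 6 had GGGCGG, 3 had CCAAT and 2 had TGANTCA (Igf1 and the second start site of Igfbp2). So the 3 binding proteins with the largest ratios shared none of these motifs. G and C made up 73.2% of the Igfbp3 window, 67.2% of that of Igfbp2, 58.8% of that of Igfbp5 and 52.8% of that of Igf1, and the median over all start sites was 52.4%. A match to letters is a description and not evidence of binding.

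Igf1, the ligand that growth hormone induces and that acts through Igf1r, was at 2.58 in Wt and 3.14 in Sipa1-/- MSCs, and at -1.86 in Wt and -1.02 in Sipa1-/- T cells. Its ratio in MSCs was 0.56, or 1.48-fold, the smallest of the family, and 4654 of the 15298 genes had a larger one. In T cells the ratio was 0.84, or 1.79-fold, and 541 genes had a larger one. Neither passed 2-fold, and the 2 MSC arrays lay above the 2 T cell arrays.

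Igf2, the fetal growth factor that is expressed from the paternal allele, was at the edge of detection. Its first probe was at -5.88 in Wt MSCs and -7.06 in Wt T cells, neither well above background, and at -4.06 in Sipa1-/- MSCs and -5.29 in Sipa1-/- T cells. Taken against the lowest signal well above background on the Wt array, the Sipa1-/- signal was 3.48-fold in MSCs and 1.21-fold in T cells. These are not firm lower limits, since that lowest signal was -5.86 for Wt MSCs, close to the probe's own level. The spot SD below -4 was 0.52 to 0.76. Igf2 was not measured on both arrays of either pair, so no rise was counted. The second probe was not well above background on any array, with levels from -7.42 to -5.87, so the higher signal on the Sipa1-/- arrays rests on 1 dim probe.

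Igf1r, the signaling receptor, had 2 probes. The first was at -1.70 in Wt and -0.45 in Sipa1-/- MSCs and at -2.43 and -2.72 in T cells. The second was at 0.02 and 0.70 in MSCs and at -0.73 and -1.29 in T cells. The probes had the same order of arrays but not the same size of ratio, 2.38-fold and 1.60-fold in MSCs, and their mean ratio of 0.96 stayed short of 2-fold. In T cells the mean ratio was -0.43.

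Igf2r, which clears IGF2 and mannose-6-phosphate proteins, was at 1.50 in Wt and 2.92 in Sipa1-/- MSCs, a rise of 2.67-fold. In T cells it was at 2.25 and 2.16. That difference of -0.08 is close to the spot SD of a ratio, 0.063, and was 0.05 with the authors' own scaling. Igf2r was the single member with a higher level on the Wt T cell array than on the Wt MSC array, and the order was the other way in Sipa1-/- cells.

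Igfbp3, the main carrier of IGFs in blood and a product of stromal cells in tissue, had the largest rise of the family. It was at 1.70 in Wt MSCs, 4.92 in Sipa1-/- MSCs, -0.89 in Wt T cells and 0.30 in Sipa1-/- T cells. The ratio in MSCs was 3.22, or 9.29-fold, and 28 of 15298 genes had a larger one. In T cells the ratio was 1.19, or 2.28-fold. The adjacent gene, Igfbp1, a liver-made binding protein, was not well above background on any array, with levels between -8.12 and -7.77.

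Igfbp5, which binds extracellular matrix and is a substrate of pappalysins, was at 2.50, 4.61, -2.90 and -0.74 in the same order of arrays. It rose 4.33-fold in MSCs. The T cell ratio was 2.17 on the log2 scale, the largest of the family there, and 34 genes had a larger one. Its neighbor on chromosome 1 with no gene between them, Igfbp2, a carrier of both ligands, was at -0.99, 1.02, -5.24 and -3.57. It rose 4.04-fold in MSCs and 3.18-fold in T cells. The Wt T cell level of Igfbp2 lies in the range where the spot SD was highest, so its ratio of 1.67 is the least precise of the measured members. With normexp, a background correction that adds a fixed offset and so shrinks the ratios of dim spots, it was 0.50, short of 2-fold, and the T cell ratio of Igfbp5 was 1.34.

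Igfbp6, which prefers IGF2, was at 5.59 in Wt and 7.24 in Sipa1-/- MSCs and at 0.33 and 1.68 in T cells, rises of 3.14-fold and 2.56-fold. Igfbp7, a matrix protein with low affinity for IGFs, was at 6.08 and 7.23 in MSCs, a rise of 2.22-fold, and at 2.79 and 3.14 in T cells, where its 1.28-fold ratio did not pass 2-fold. Igfbp4, a pappalysin substrate, was measured with 2 probes. These were at -0.77 and 0.09 in Wt MSCs and at 0.66 and 1.19 in Sipa1-/- MSCs, rises of 2.70-fold and 2.14-fold. In T cells the first Igfbp4 probe was at -1.87 in Wt and -2.13 in Sipa1-/-, and the second at -1.08 and -1.21, with a mean ratio of -0.19. The 6 binding proteins thus all rose in MSCs, and Igfbp4 and Igfbp7 were the ones that did not pass 2-fold in T cells.

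**Figure D2:**
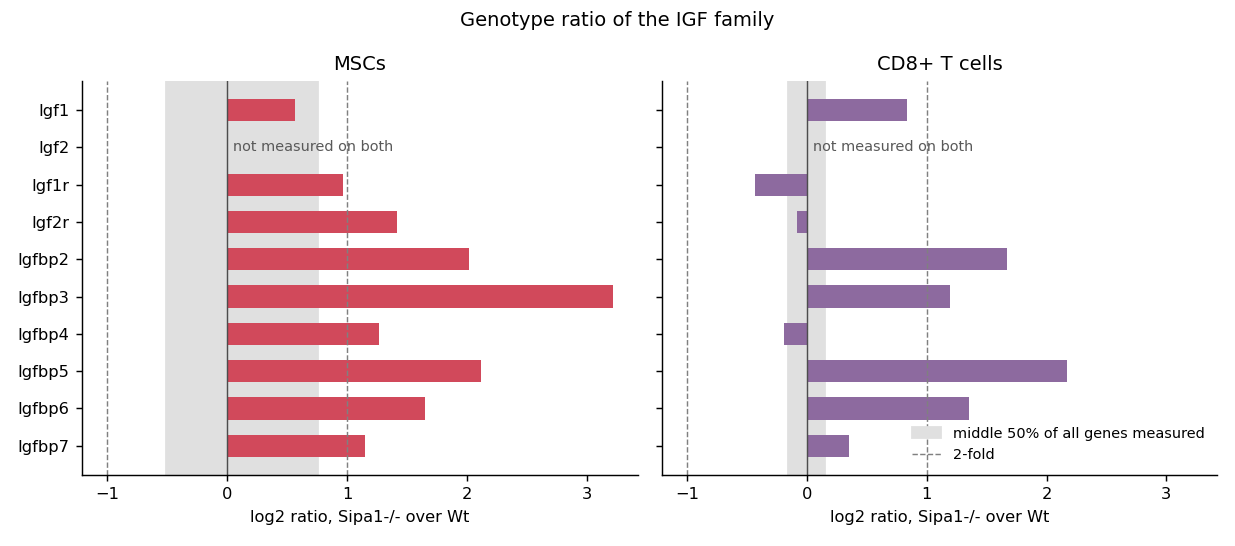
Log2 ratio, Sipa1-/- over Wt, of each member (bars, horizontal axis) in MSCs and in T cells; the grey band holds the middle 50% of all measured genes and dashed lines mark 2-fold. In MSCs all 9 bars point right, from 0.56 for Igf1 to 3.22 for Igfbp3, and in T cells Igf1r, Igf2r and Igfbp4 lie below 0.

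Against T cells, the MSC arrays were higher in most of the family. In Wt, 7 of 9 measured members were at least 2-fold higher in MSCs and 0 lower, where 17.3% of 14225 genes were higher and 12.8% lower by that much. In Sipa1-/- cells 9 of 10 were higher and 0 lower, where the shares over 14300 genes were 21.9% and 18.7%. The first count was 6 to 8 and the second 8 to 10 under the alternatives tried, and Igfbp4 in Wt fell short of 2-fold with a median shift (0.90) and with normexp (0.93). Igfbp5 and Igfbp6 had the widest gaps, 42.2-fold and 38.4-fold in Wt and 40.7-fold and 47.1-fold in Sipa1-/- cells. Igf1 was 21.8-fold and 18.0-fold higher in MSCs, Igfbp7 9.75-fold and 16.9-fold, and Igfbp3 6.04-fold and 24.6-fold. For Igfbp2 the log2 ratio was 4.25 in Wt and 4.59 in Sipa1-/- cells, and with normexp 2.00 and 3.22. The Wt log2 ratio of Igfbp5 went from 5.40 to 4.25 with normexp. Igf2, measured in both cell types only in Sipa1-/- cells, was 2.33-fold higher in MSCs, but its log2 ratio of 1.22 was 0.94 with quantile normalization, 0.50 with no flags and 0.11 with normexp. Igf1r was 1.67-fold higher in Wt, short of 2-fold, and 4.38-fold higher in Sipa1-/- cells. In sorted bulk RNA, fewer cells of a type and less RNA per cell cannot be told apart.

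The labelled cell types were checked against marker genes. T cell markers such as Cd3d and Cd8b1 were high on both T cell arrays, at 6.90 to 7.41. T cell markers were also detected on the MSC arrays, 10 of 11 in Wt and 11 of 11 in Sipa1-/-. Their summed levels (the sum of linear signals in units of the 75th percentile) were 23.3 and 5.65, against 641 and 655 on the T cell arrays. In the MSC pair 6 of 10 measured T cell markers were higher in Sipa1-/- and 4 lower, with a median ratio of 0.33. Cd2, the brightest of them on the Wt MSC array and so the largest part of that sum, went from 4.08 to 0.56. Lat went from 0.91 to -1.78, while Cd3d went from -1.65 to -0.57, Cd3g from -4.07 to -2.64 and Cd8b1 from -2.56 to -1.26. All 15 fibroblast markers were well above background on all 4 arrays, which include the T cell arrays, where Thy1 and S100a4 are also expressed by T cells. The Wt MSC array carried all 12 B-lineage markers, and their summed level was 689 there, 42.3 for Sipa1-/- MSCs, 29.8 for Wt T cells and 21.5 for Sipa1-/- T cells. Leukocyte markers, which the CD45 gate should remove, summed to 177 on the Wt and 47.2 on the Sipa1-/- MSC array. Granulocyte and erythroid markers were well above background on both MSC arrays and summed to 726 and 815, and to 605 and 646. On the Wt and Sipa1-/- T cell arrays granulocyte markers summed to 627 and 332, and erythroid markers to 17.2 and 7.76. Their median T cell ratios were -1.12 and -1.07.

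Fibroblast markers moved with the IGF family. In MSCs, 13 of 13 measured fibroblast markers were higher on the Sipa1-/- array, 8 by at least 2-fold, with a median ratio of 1.56, and their summed level went from 1146 to 2031. In T cells 14 of 15 were higher, 12 by at least 2-fold, with a median of 1.55, and the sum went from 333 to 460, or from 46.0 to 133 without Thy1 and S100a4. Igfbp3 in MSCs had a larger ratio than all 13 markers, by 1.65 over their median, and Igfbp5 a larger one than 12 of them. Igfbp2 and Igfbp6 were above the marker median by 0.45 and 0.09, and the other 5 measured members were below it. In T cells Igfbp5 lay above all 15 markers and Igfbp2 above 9, and the other 7 measured members lay below the median. Macrophage markers, which come from a further known source of Igf1, were higher for 11 of 11 in MSCs, with a median of 1.04. Their sum went from 8.68 to 16.5 there. In T cells their median was 0.17, and their sums were higher than in MSCs, 22.1 in Wt and 22.4 in Sipa1-/-. Markers of pericytes and smooth muscle had medians of 0.88 and -0.08, and those of endothelial cells 0.05 and -0.03, and of these 4 only the first kept its sign under all 7 alternatives of scaling and filtering. Of 8 adipocyte markers 3 were measured in MSCs, with a median of 1.42 and a sum over all 8 that went from 3.27 to 16.2. Lpl, the brightest of them, went from 1.25 to 3.82 and Lep from -2.03 to -2.08. On the Wt MSC array 4 of the 8 were not well above background. In MSCs 7 of 8 measured skeletal muscle markers were higher, with a median of 0.60 and a sum that went from 63.0 to 105. The part of these cells in the ratios of the family was not tested.

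**Figure D3:**
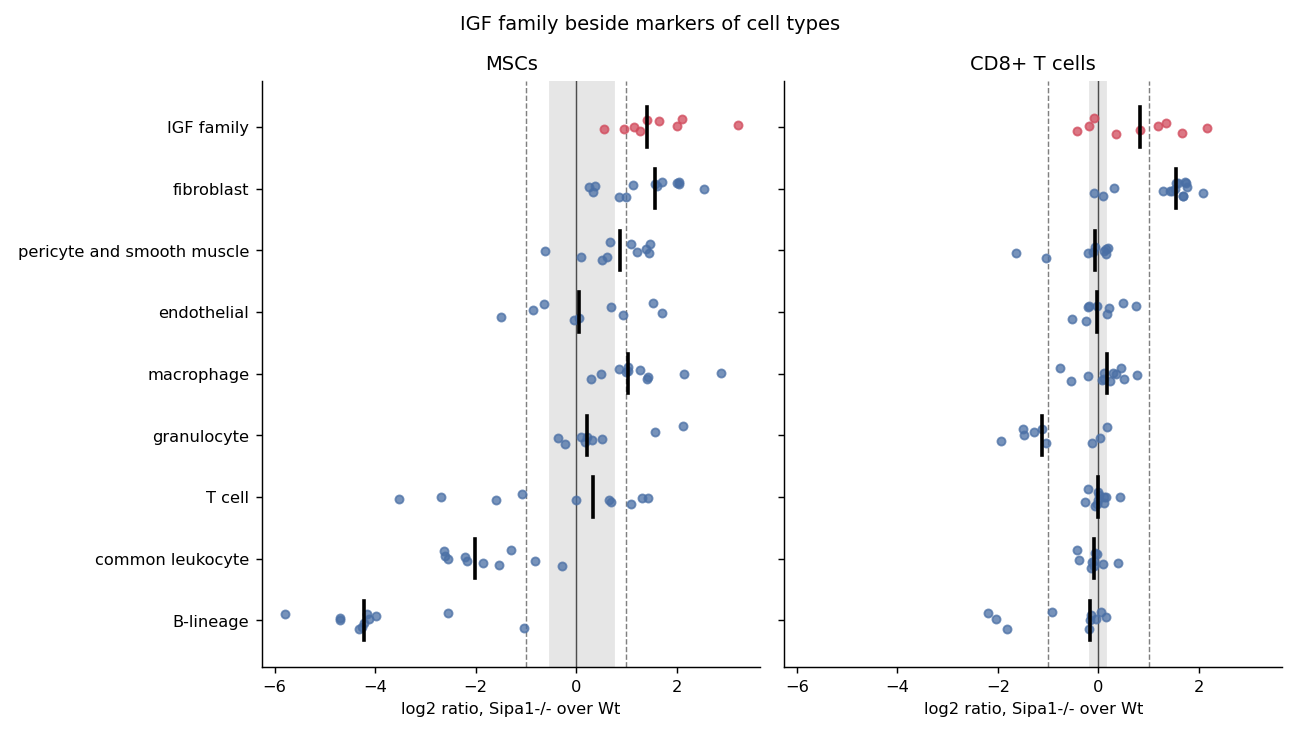
Log2 ratio, Sipa1-/- over Wt (horizontal axis), of each measured gene (points) of the IGF family and of marker lists of cell types, in MSCs and in T cells; black bars are medians, the grey band holds the middle 50% of all genes and dashed lines mark 2-fold. The family median of 1.42 in MSCs lies beside the fibroblast median of 1.56, and the B-lineage median is -4.22.

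Other genes of the pathway were taken as 7 lists of 73 genes. For all of their counts, the shares over all genes were 19.3% rising and 11.3% falling in MSCs. In T cells these shares were 2.66% and 1.4%. Of the proteases that cut binding proteins and their inhibitors, 8 of 9 were measured in MSCs and 6 rose, with a median of 1.52. Pappa, the pappalysin that cuts Igfbp4 and Igfbp5, went from -2.91 to -0.46, a rise of 5.46-fold. Adam12, a metalloprotease that cuts Igfbp3 and Igfbp5, rose 4.68-fold, and Pappa2, which cuts Igfbp3 and Igfbp5, rose 3.52-fold. With normexp the log2 ratios of Pappa and Adam12 were 1.74 and 1.45, and that of Pappa2 was 0.93 with no flags. In T cells 2 of 6 rose, the secreted serine proteases Htra1 and Htra3, by 3.14-fold and 2.43-fold. One Htra3 probe had a T cell ratio of 0.66 and the other passed 2-fold, and with normexp their mean was 0.98, short of 2-fold.

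The CCN proteins, matricellular proteins that share a domain with the IGFBPs, had 4 of 6 measured in MSCs. All 4 rose, with a median of 1.73, among them Ccn2 (3.61-fold), Ccn4 (3.58-fold) and Ccn1 (3.07-fold). With flags on 1 array, and with no flags, all 6 were measured in MSCs. Of these 6, 5 rose and 1 fell, with a ratio of -2.63. In T cells 2 of 4 rose, Ccn4 with a ratio of 1.20 and Ccn5 with 1.13. With normexp neither passed 2-fold, at 0.68 and 0.58. Ccn5 was at 0.98 with a median shift and 0.99 with quantile normalization, and Ccn4 turned to -0.11 when no flags were required. Of the other ligands, receptors and binding partners, 3 of 9 were measured. Lrp1, a scavenger receptor that also binds Igfbp3, rose 3.16-fold in MSCs and 2.23-fold in T cells, where its log2 ratio was 0.86 with normexp. Insrr, an orphan relative of Igf1r, had a ratio of 0.93 in MSCs and 0.68 in T cells, where its 2 probes differed in sign, and Insr, the insulin receptor, had 0.35 in MSCs.

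Imprinted growth genes, which include the noncoding RNA H19 that shares its control region with Igf2, had 9 of 11 rise in MSCs, with a median of 1.56. The MSC count was 7 of 11 with a median shift, with quantile normalization and with normexp, and the median was 1.07 with normexp. In T cells 6 of 9 rose, with a median of 1.37 (3 of 9 with normexp). Meg3, a maternally expressed noncoding RNA, went from -0.01 to 2.94 in MSCs, a rise of 7.72-fold, and rose 4.89-fold in T cells, where its log2 ratio went from 2.29 to 1.18 with normexp. H19 went from 4.18 to 6.68 in MSCs, a rise of 5.66-fold, and its T cell levels of -1.76 and 0.77 were a rise of 5.77-fold. Cdkn1c, a cell cycle inhibitor, rose 4.99-fold in MSCs. Dcn, which is imprinted in placenta, is in both this list and the fibroblast list.

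In the growth hormone axis 2 of 8 genes rose and 1 fell in MSCs, shares of the order of the 19.3% and 11.3% over all genes, with a median of 0.55. Ghr, the growth hormone receptor, rose 3.19-fold. Socs3, an inhibitor of cytokine receptors, rose 2.06-fold, but its log2 ratio was 0.90 with a median shift, short of 2-fold. Socs2, an inhibitor of growth hormone signaling, fell by 1.59 on the log2 scale. In T cells none of the 8 passed 2-fold, and Socs3 and Socs2 had the largest ratios, -0.71 and 0.63. Of the adaptors and kinases below Igf1r, 2 of 22 rose and 2 fell in MSCs, with a median of 0.19. Grb10, an imprinted adaptor that inhibits Igf1r, rose 5.22-fold, Irs1, a main substrate of the receptor, rose 5.00-fold, and Mtor fell by 2.40 on the log2 scale. In T cells Irs1 was the 1 of 19 that rose, by 3.15-fold from a Wt level of -4.86. Its ratio was 0.56 with normexp, short of 2-fold. Pik3r1, a PI3 kinase subunit, had a T cell ratio of 0.51. Of the 4 RNA-binding proteins measured, Igf2bp2 rose 2.73-fold in MSCs, with a log2 ratio of 0.89 under normexp, Igf2bp3 fell by 1.84 on the log2 scale, and Hmga2, which acts upstream of Igf2bp2, had a ratio of 0.91. In T cells Hmga2 rose 2.27-fold, and Igf2bp3 had a ratio of 0.21. The Hmga2 call was lost with normexp (0.38) and with quantile normalization (1.00, just short of 2-fold).

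**Figure D4:**
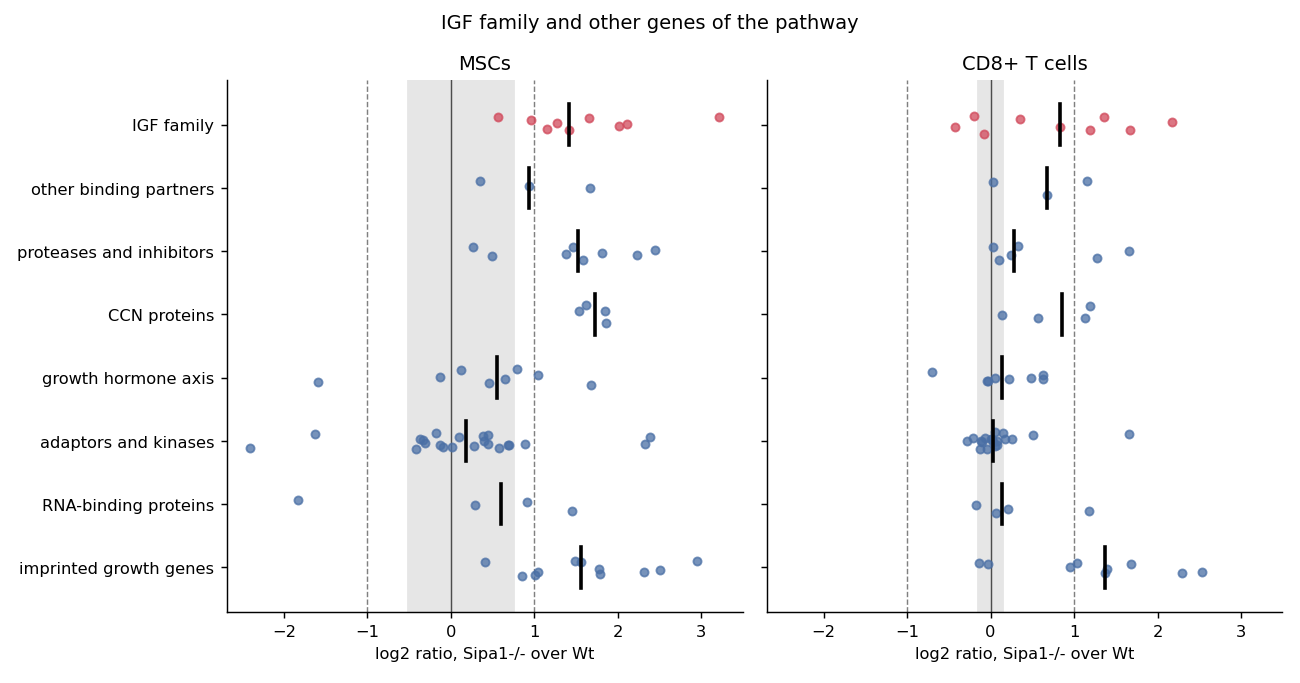
Log2 ratio, Sipa1-/- over Wt (horizontal axis), of each measured gene (points) of the IGF family and of 7 lists of other pathway genes, in MSCs and in T cells; black bars are medians, the grey band holds the middle 50% of all genes and dashed lines mark 2-fold. Proteases, CCN proteins and imprinted genes have medians of 1.52 to 1.73 in MSCs, and adaptors and kinases spread around 0.19.

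The genes with the pattern most like a member were found among 13766 genes measured on all 4 arrays, as the smallest root mean square difference of the 4 levels after centering each gene. Igfbp5 was nearest to Adamts15 (0.04), Mrc2 (0.06) and Cilp (0.12), a matrix protease, a collagen receptor and a matrix protein. Igfbp6 was nearest to Ddr2 (0.05), Flrt2 (0.05) and Fbn1 (0.06), the first a collagen receptor and the last, fibrillin, one of the fibroblast markers. Igfbp2 was nearest to fibronectin, Fn1, at 0.09, then Lhfpl2 (0.09) and Mmp14 (0.13). Igfbp3 was nearest to Ltc4s, leukotriene C4 synthase, at 0.13, then Plxna4 (0.19) and Cpxm2 (0.24), and only 2 genes lay within 0.2 of it.

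Igf1 was nearest to Slco2b1, an organic anion transporter, at 0.08, then Tnni2 and Cyp26b1, both at 0.14. Igf1r was nearest to Ahr, the aryl hydrocarbon receptor, at 0.05, then Spa17 (0.06) and Fbxo17 (0.08). Igf2r was nearest to Ddit4 (0.02), Cstad (0.05) and Tex264 (0.05), Igfbp4 to Zfp518b (0.04), Cyb5r3 (0.04) and Mlkl (0.05), and Igfbp7 to Trim47 (0.02), Cdc42ep1 (0.04) and Cyb561 (0.04). With 4 arrays, such likeness is common, and 195 genes lay within 0.2 of Igf2r. Between members, Igf1r and Igfbp4 were closest, at 0.25, and then Igfbp5 and Igfbp6, at 0.33.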

How the data were processed

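Gene expression of MSCs and of CD8+ T cells was measured on 4 one-color Agilent mouse arrays, 1 for each cell type and genotype. The deposited values are spot intensities that the authors' scanner software, Agilent Feature Extraction, had corrected for background; the file headers give version 12.0.3.1 and the submitters' processing notes 9.1. The authors' series matrix holds the same intensities times 1 constant per array (1.13, 1.34, 0.941 and 1.13 for Wt MSCs, Sipa1-/- MSCs, Wt and Sipa1-/- CD8+ T cells), on a linear scale with column medians of 41.0, 52.0, 25.5 and 30.9. How the constants were chosen stays unknown; no centering per gene was seen, and the columns are levels without a direction.

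The main value was log2 intensity minus the array's 75th percentile over spots that are not controls. Following the methods, probes needed saturation and non-uniformity flags of 0 and above-background flags of 1 on both arrays of a pair; spots were averaged per probe and probes per gene. Accessions on the array were matched to RefSeq (GRCm38.p6) for symbols, for 57.6% of spots. The calculation was run on simulated data with 200 changed genes among 15298 for the MSC pair and 14339 for the CD8+ T pair. It found 100% of them, with 0 false calls, which checks the arithmetic and not the sensitivity on real arrays. How many real 2-fold differences are missed or wrongly called was not tested, since each condition has 1 array.

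The members and lists were chosen with earlier results of these data known. The genes named are all members, the 3 genes with the largest absolute ratio in MSCs and the 2 in CD8+ T cells of each pathway list, Sipa1, and the genes most like a member; marker genes and Igfbp1 were named besides, after their values were seen. Alternatives were a median shift, quantile normalization, the series matrix, normexp background correction (offset 50, median spot signal), flags on 1 array, no flags and the brightest probe, and, chosen after seeing the data, a scale on fibroblast markers. R 4.3.3 with limma 3.58.1 and Python 3.11.15 with numpy 2.4.6, pandas 2.3.3 and matplotlib 3.10.9 were used.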

Additional observations from a re-analysis of the deposited data

Results flagged for a closer look

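For 3 members the genotype ratio had opposite signs in the 2 cell types, 1 array against 1 in each. The log2 ratio, Sipa1-/- over Wt, was 0.96 in MSCs and -0.43 in CD8+ T cells for Igf1r, a gap of 1.39. For Igf2r it was 1.42 and -0.08, a gap of 1.50, and the CD8+ T value was 0.05 with the series matrix values. For Igfbp4 it was 1.27 and -0.19, a gap of 1.46. These differences were not tested, since each condition has 1 array.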

How the results depend on the processing

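Under the 7 alternatives of scaling and filtering, chosen before the fibroblast scale below, no member changed the sign of its MSC ratio. Members at least 2-fold higher numbered 7 to 8 in MSCs and 3 to 5 in CD8+ T cells, and between cell types 6 to 8 in Wt and 8 to 10 in Sipa1-/- cells, and 0 were lower. The family median in MSCs, 1.42, was 1.28 with a median shift, 1.52 with quantile normalization, 1.62 with the series matrix, 1.53 with flags on 1 array and 1.49 with no flags. In CD8+ T cells, where it was 0.84, it was 0.69, 0.74, 0.97, 1.01 and 1.00 in the same order, and 0.50 with normexp. Igf1r in MSCs ranged from 0.68 to 1.17 and so crossed 2-fold. The medians of all 7 pathway lists stayed above 0 in MSCs under these alternatives. In CD8+ T cells those of the growth hormone axis, of adaptors and kinases and of RNA-binding proteins did not, with lowest values of -0.01, -0.11 and -0.01.

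On a scale that sets the median of the fibroblast markers equal on both arrays, chosen after seeing the data, the family median was -0.15 in MSCs and -0.72 in CD8+ T cells. By construction this lowered the ratio of every gene by 1.56 and 1.55. Then 1 member was 2-fold higher and 1 lower in MSCs, and 0 higher and 4 lower in CD8+ T cells. In MSCs the member 2-fold lower was Igf1, and Igf1r turned to -0.60, Igf2r to -0.15, Igfbp4 to -0.30 and Igfbp7 to -0.41. In CD8+ T cells Igf1 turned to -0.72, Igfbp3 to -0.36, Igfbp6 to -0.20 and Igfbp7 to -1.20.

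The median of all genes shifted by -0.14 (MSCs) and -0.15 (CD8+ T cells) with a median shift and by 0.21 and 0.13 with the series matrix, and between cell types by -0.23 in Wt and -0.22 in Sipa1-/- cells and by 0.45 and 0.53. Among genes past 2-fold, 63.1% were higher in the MSC pair and 65.5% in the CD8+ T pair, which became 74.1% and 76.3% with the series matrix, and for the latter 52.5% with a median shift and 52.4% with normexp. Between cell types, 57.4% in Wt and 54.0% in Sipa1-/- cells, it was 76.6% and 76.3% with the series matrix and 45.5% and 42.9% with a median shift. In CD8+ T cells 381 genes were higher and 201 lower, against 685 and 371 with flags on 1 array, 1059 and 633 with no flags, and 108 and 98 with normexp; in MSCs 2958 were higher against 1828 with normexp. Between cell types, genes higher in MSCs numbered 2457 in Wt and 3131 in Sipa1-/- cells, against 3898 and 4739 with flags on 1 array and 4185 and 5019 with no flags, and those lower 1821 and 2671, against 1082 and 1357 with the series matrix. The cause of these moves was not tested.

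No paired analysis was possible because the 4 arrays are 1 per condition. Dim probes, Igf2 and Wt CD8+ T Igfbp2, are limited by signal over background.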
